A study of Mus musculus with 19 samples.

Results

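Y RNA fragments are the reads of 15 to 45 nt that match Rny1 or Rny3, the Y RNA genes that the GENCODE annotation of the mouse holds under these names. Only reads in the sense direction with no more than 1 mismatch were taken, and a read was kept where no other small RNA gene matched it better. In all 19 libraries together, 73829 of 711662713 reads met this rule, 46041 on Rny1 and 27788 on Rny3, in 3823 distinct sequences. Small RNA of sperm was sequenced from male wild-type C57BL/6J mice that were 8 weeks old at the start and received corn oil, the vehicle, or the phthalate dicyclohexyl phthalate (DCHP, 10 mg/kg body weight per day) by oral gavage for 4 weeks. Sperm came from the cauda epididymis after somatic cells had been lysed, and RNA of 15–50 nt was cut from a gel. For PANDORA-seq, RNA was reacted with T4 polynucleotide kinase (T4PNK), which gives fragment ends the form that adapters join to, and with AlkB, a demethylase that removes methyl groups at which reverse transcription stops. The traditional RNA-seq libraries were made without these enzyme steps. There were 4 control and 5 DCHP libraries of PANDORA-seq, and 5 control and 5 DCHP libraries of traditional RNA-seq. The labels name DCHP for every library, so control and exposed status was taken from the library titles. The labels do not say whether libraries of a group came from separate mice, while the study describes its PANDORA-seq libraries as biological replicates of mice. The study states that sperm RNA of control and exposed sires went into both methods, so the methods may share mice. The p-values measure the spread between these libraries, and the main tests between methods treat them as unpaired. The labels name no sequencing batch.

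Y RNAs are short noncoding RNAs made by RNA polymerase III. The ends of the RNA pair into a stem that carries the binding site of the protein Ro60, a loop lies between the strands, and the RNA ends in a run of uridines that La protein binds. They are known for roles in the quality control of misfolded RNA and in the start of DNA replication, and fragments from either end of the stem are found in many tissues and body fluids, sperm included. A fragment class was assigned from the position of the read alone: 5′ fragments start at base 1 to 3 of the gene, 3′ fragments end within its last 5 bases, and all others are internal.

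Rny1 (ENSMUSG00000065701.1) lies at chr6:47788069-47788180 of GRCm38 on the minus strand, and Rny3 (ENSMUSG00000064945.1) at chr6:47781624-47781725 on the plus strand. Each is annotated as a single-exon misc_RNA gene, 6343 bases apart. Both RNAs are shown whole, 5′ to 3′ with T for U, so that fragment ends can be placed on them. Capitals mark the bases that RNAfold leaves unpaired in its minimum free energy model of the whole RNA, which is a prediction and was not measured.

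Rny1, bases 1 to 112: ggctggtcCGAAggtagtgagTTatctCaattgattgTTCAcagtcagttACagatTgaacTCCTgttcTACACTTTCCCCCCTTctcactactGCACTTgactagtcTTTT
Rny3, bases 1 to 102: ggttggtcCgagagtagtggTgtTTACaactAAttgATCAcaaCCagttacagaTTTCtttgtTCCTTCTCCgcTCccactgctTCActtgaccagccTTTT

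The first 18 bases of the RNAs are the same at 15 positions and differ at C3T, A12G and G13A, where Rny1 is given first and positions are counted from the 5′ end. No read matched both genes equally well. For each gene and method, the 3 sequences with the highest mean level were chosen, and all of them were 5′ fragments that began at base 1 and matched exactly. For Rny1, capitals mark the bases past base 29, the most 5′ of these ends.

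Rny1 1–29, traditional RNA-seq: ggctggtccgaaggtagtgagttatctca
Rny1 1–30, both methods: ggctggtccgaaggtagtgagttatctcaA
Rny1 1–31, PANDORA-seq: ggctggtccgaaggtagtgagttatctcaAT
Rny1 1–34, PANDORA-seq: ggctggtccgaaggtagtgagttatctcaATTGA
Rny1 1–35, traditional RNA-seq: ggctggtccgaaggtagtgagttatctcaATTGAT

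For Rny3, capitals mark the bases past base 18, the end of the most frequent Rny3 sequence in traditional RNA-seq.

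Rny3 1–17, traditional RNA-seq: ggttggtccgagagtag
Rny3 1–18, traditional RNA-seq: ggttggtccgagagtagt
Rny3 1–23, both methods: ggttggtccgagagtagtGGTGT
Rny3 1–26, PANDORA-seq: ggttggtccgagagtagtGGTGTTTA
Rny3 1–38, PANDORA-seq: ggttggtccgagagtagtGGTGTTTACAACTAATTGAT

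The libraries held 21588335 to 56506344 reads and 1252 to 9808 Y RNA reads each, so the counting error of the Y RNA total was 1.01% to 2.83%. Levels are given as reads-per-million (RPM), which sets the reads of a gene or fragment against all deposited reads of its library, and 3 reads of a library, the limit that a count of 0 allows, come to 0.0531 to 0.139 RPM. Antisense reads, found by the same rule, numbered 0 to 11 per library and marked the level of chance matches. The reads carry no molecular identifiers, so these errors cover the counting of reads only. The labelled cell type was not checked against marker RNAs here.

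Y RNA reads made up 71.9 ± 12.96 RPM (SD, n = 4) in control and 72.2 ± 50.6 RPM (SD, n = 5) in DCHP libraries of PANDORA-seq. In traditional RNA-seq they made up 106 ± 24.2 RPM (SD, n = 5) in control and 161 ± 80.2 RPM (SD, n = 5) in DCHP libraries. Replicate 5 was the highest DCHP library in both methods, at 159 RPM in PANDORA-seq and 303 RPM in traditional RNA-seq. In sperm as a bulk sample, fewer cells of a type and less RNA per cell cannot be told apart. By mean level, Rny1 ranked 40 and Rny3 29 among 1862 small RNA genes outside the miRNA, rRNA and tRNA classes that had reads in PANDORA-seq controls, and 16 and 40 among 2376 in traditional controls.

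Rny1 and Rny3 took different shares of the Y RNA reads in PANDORA-seq and traditional RNA-seq. In control sperm, the PANDORA-seq libraries had 38.9% ± 5.40 of Y RNA reads on Rny1 (SD, n = 4) and the traditional libraries 74.3% ± 3.35 (SD, n = 5). In DCHP-exposed sperm the shares were 40.04% ± 8.46 and 77.3% ± 2.96 (SD, n = 5 each). The highest PANDORA-seq library was at 48.5% and the lowest traditional library at 70.5%, so the methods did not overlap. The difference was -35.4 percentage points in control and -37.2 in DCHP sperm (two-sided exact permutation test over libraries, p = 0.00794 for both, the smallest p these groups allow; adjusted p = 0.0222 over 28 comparisons of shares and lengths). The share does not depend on how libraries are scaled.

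Per total read, Rny1 was at 28.2, 32.5, 28.2 and 21.7 RPM in the 4 PANDORA-seq control libraries, and at 72.9, 84.4, 102, 62.3 and 69.5 RPM in the 5 traditional control libraries. In DCHP sperm, it was at 20.03, 25.3, 15.3, 23.0 and 45.6 RPM in PANDORA-seq and at 88.8, 92.5, 96.4, 111 and 233 RPM in traditional RNA-seq. All PANDORA-seq libraries were below all traditional libraries, and how many of all genes separated in this way is not given here. Rny1 was 2.83-fold lower in PANDORA-seq of control sperm (log2 fold change -1.501, SE 0.34, edgeR adjusted p = 0.00132) and 4.81-fold lower in DCHP sperm (-2.26, SE 0.42, edgeR adjusted p = 0.000151). Without the high replicate 5 of traditional RNA-seq, the log2 fold change in DCHP sperm was -1.91, and without that of PANDORA-seq it was -2.57. Most small RNA genes were lower in PANDORA-seq per total read: edgeR called 68.5% of 893 genes in control, 53.0% lower and 15.6% higher, with a median log2 fold change of -1.35. In DCHP sperm it called 74.4% of 958 genes, 61.7% lower and 12.7% higher, with a median of -1.91. Rny1 lay near that median of all genes. For the genes outside the miRNA, rRNA and tRNA classes, of which Rny1 is 1, the median was higher. It was -0.061 over 366 genes in control and -0.593 over 386 genes in DCHP sperm, and Rny1 lay below it in both. Its direction depends on the scaling: with reads on miRNA hairpins as library size, the log2 fold change of Rny1 was 0.93 in control and 0.41 in DCHP sperm, and with the scaling factors of TMM it was -0.69 and -0.998, neither past the fold threshold of 2. Among the calls in control, 22.7% were higher per total read, 37.4% with TMM and 61.5% per hairpin read, and in DCHP sperm 17.1%, 37.5% and 55.9%.

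Rny3 was at 43.9, 39.1, 59.5 and 34.3 RPM in PANDORA-seq controls and at 30.5, 27.1, 41.2, 16.96 and 22.7 RPM in traditional controls. In DCHP sperm, its levels were 28.1, 48.8, 16.2, 25.8 and 113 RPM in PANDORA-seq and 20.2, 31.8, 32.6, 29.4 and 70.1 RPM in traditional RNA-seq. The groups overlapped in both cases, and neither difference per total read was called (log2 fold change 0.68, SE 0.36, edgeR adjusted p = 0.109 in control, and 0.33, SE 0.51, adjusted p = 0.574 in DCHP sperm). Without replicate 5 of PANDORA-seq, the change in DCHP sperm was -0.309, and without replicate 5 of traditional RNA-seq it was 0.702. With TMM factors Rny3 was called higher in PANDORA-seq, by 1.48 in control and 1.58 in DCHP sperm on the log2 scale, and by 3.09 and 3.02 per hairpin read.

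**Figure D1:**
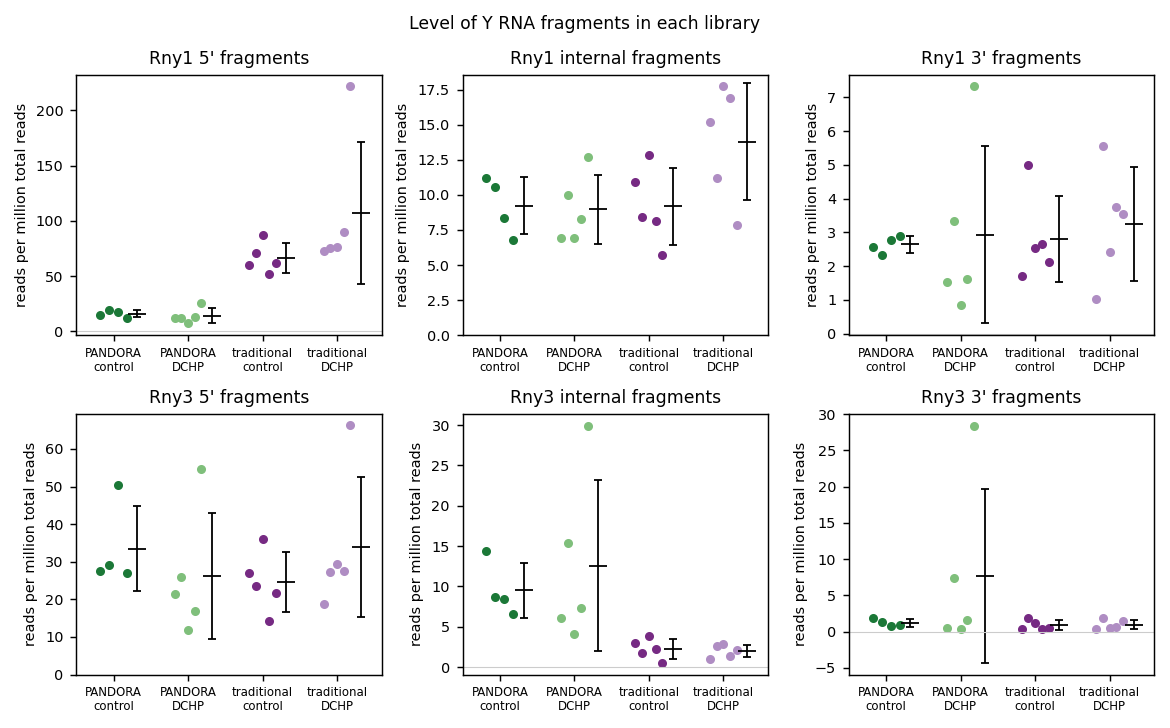
Level of each Y RNA fragment class in RPM (vertical axes, each from 0 or just below it, with their own scale) in each of the 19 libraries (points), by method and exposure. The black mark is the group mean with its SD. The Rny1 5′ panel shows all PANDORA-seq libraries at or below 25.6 RPM and all traditional libraries at or above 51.5 RPM, and the Rny3 internal panel shows all PANDORA-seq libraries above all traditional ones.

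Per total read, the 5′ fragments of Rny1 were called lower in PANDORA-seq. They carry the upper strand of the terminal stem. Rny1 5′ fragments were at 14.4, 19.6, 17.1 and 12.03 RPM in PANDORA-seq controls and at 60.3, 70.9, 86.9, 51.5 and 61.7 RPM in traditional controls. In DCHP sperm they were at 11.6, 11.99, 7.47, 13.2 and 25.6 RPM in PANDORA-seq and at 72.5, 75.7, 76.2, 89.9 and 222 RPM in traditional RNA-seq. No PANDORA-seq library reached a traditional one, and how many of all fragment classes separated in this way is not given here. Rny1 5′ fragments were 4.20-fold lower in control (log2 fold change -2.07, SE 0.37, edgeR adjusted p = 0.00016) and 7.68-fold lower in DCHP sperm (-2.94, SE 0.46, edgeR adjusted p = 4.27e-05). Per total read, edgeR called 69.6% of the 1196 fragment classes of all small RNA genes in control, 50.3% lower and 19.2% higher. In DCHP sperm it called 73.7% of 1264, 57.4% lower and 16.2% higher. The median log2 fold change over the 5′ classes alone was -1.32 in control and -1.92 in DCHP sperm. Per hairpin read the difference of Rny1 5′ fragments was not called, at 0.37 in control and -0.25 in DCHP sperm on the log2 scale.

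Rny1 internal fragments were at 6.78 to 11.2 RPM in PANDORA-seq controls and 5.71 to 12.8 RPM in traditional controls, with a log2 fold change of 0.00 (SE 0.37, edgeR adjusted p = 0.993). In DCHP sperm they were at 6.93 to 12.7 and 7.85 to 17.8 RPM (-0.62, SE 0.35, edgeR adjusted p = 0.118). Where 5′ fragments had to start at base 1, so that reads from base 2 or 3 counted as internal, they were called lower in DCHP sperm (-1.11, edgeR adjusted p = 0.00623). These values hold reads that another gene matches equally well: 21 to 40 Y RNA reads in each PANDORA-seq library and 114 to 560 in each traditional library, on Rny1 in every case and most often shared with the predicted gene Gm22508. Without those reads the internal fragments of Rny1 were higher in PANDORA-seq, by 1.41 in control (edgeR adjusted p = 0.0199) and 1.22 in DCHP sperm (edgeR adjusted p = 0.00474) on the log2 scale. Per hairpin read, all internal fragments of Rny1 together were called higher, by 2.39 in control and 1.89 in DCHP sperm. Rny1 3′ fragments, the lower strand of the stem, were at 2.34 to 2.90 RPM in PANDORA-seq and 1.70 to 4.99 RPM in traditional controls (-0.08, SE 0.39, edgeR adjusted p = 0.862). In DCHP sperm they were at 0.855 to 7.32 and 1.02 to 5.56 RPM (-0.15, SE 0.56, edgeR adjusted p = 0.826), and without replicate 5 of PANDORA-seq the change was -0.83. Per hairpin read, Rny1 3′ fragments were called higher, by 2.46 in control (edgeR adjusted p = 5.75e-05) and 2.42 in DCHP sperm (adjusted p = 0.00188).

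For Rny3, the internal fragments were called higher in PANDORA-seq in control and in DCHP sperm under each scaling tried. They were at 14.4, 8.66, 8.42 and 6.53 RPM in PANDORA-seq controls and at 2.996, 1.71, 3.83, 2.26 and 0.538 RPM in traditional controls. In DCHP sperm the levels were 6.06, 15.4, 4.13, 7.37 and 29.9 RPM in PANDORA-seq and 0.999, 2.55, 2.82, 1.32 and 2.16 RPM in traditional RNA-seq. The groups did not overlap in either comparison. How many of all fragment classes separated in the same way is not given here. Per total read, edgeR called 69.6% of 1196 classes in control, 19.2% higher, and 73.7% of 1264 in DCHP sperm, 16.2% higher. Internal Rny3 fragments rose 4.16-fold in control (log2 fold change 2.06, SE 0.49, edgeR adjusted p = 0.00181) and 6.40-fold in DCHP sperm (2.68, SE 0.55, edgeR adjusted p = 0.000501). The call held under each alternative tried, with log2 fold changes of 1.81 to 4.40 in control and 2.14 to 5.24 in DCHP sperm. The median over the internal classes of all small RNA genes was -1.20 in control and -1.83 in DCHP sperm.

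Rny3 5′ fragments were at 26.9 to 50.4 RPM in PANDORA-seq and 14.3 to 36.1 RPM in traditional controls, and at 11.8 to 54.7 and 18.8 to 66.5 RPM in DCHP sperm. Neither difference was called per total read (log2 fold change 0.45, SE 0.38, edgeR adjusted p = 0.311 in control, and -0.37, SE 0.46, adjusted p = 0.479 in DCHP sperm). In control it was called with TMM factors (1.15), with DESeq2 (1.08) and per hairpin read (2.86), and in DCHP sperm it was called higher per hairpin read (2.32, edgeR adjusted p = 0.000179). Rny3 3′ fragments were at 1.93, 1.32, 0.763 and 0.849 RPM in PANDORA-seq and at 0.382, 1.86, 1.25, 0.382 and 0.455 RPM in traditional controls (0.46, SE 0.55, edgeR adjusted p = 0.479). This difference too was called with TMM factors (1.17), with DESeq2 (1.15) and per hairpin read (3.21). In DCHP sperm they were at 0.507, 7.43, 0.327, 1.64 and 28.4 RPM in PANDORA-seq and at 0.395, 1.85, 0.543, 0.672 and 1.42 RPM in traditional RNA-seq. That difference was called (2.99, SE 1.01, edgeR adjusted p = 0.0149), but replicate 5 of PANDORA-seq decided it: without this library it was 1.36 (edgeR adjusted p = 0.130). The exact permutation test over libraries did not call it either (adjusted p = 0.351).

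The share of 5′ fragments within each gene needs no library scale. It is a different comparison, since it also depends on the levels of the internal and 3′ fragments. In control sperm, 5′ fragments made up 56.8% ± 4.49 of Rny1 reads by PANDORA-seq (SD, n = 4) and 84.7% ± 2.49 by the traditional method (SD, n = 5). In DCHP sperm they made up 53.5% ± 4.91 and 83.8% ± 6.41 (SD, n = 5 each). For Rny3, the shares were 75.1% ± 9.14 (SD, n = 4) and 88.7% ± 4.21 (SD, n = 5) in control, and 63.2% ± 12.2 and 91.4% ± 3.50 (SD, n = 5 each) in DCHP sperm. All 4 differences passed the two-sided exact permutation test, with adjusted p = 0.0222 for Rny1 in control and in DCHP sperm and for Rny3 in DCHP sperm, and 0.0370 for Rny3 in control. The call for Rny3 in control was lost without any 1 library other than replicate 3 of PANDORA-seq (exact permutation test, adjusted p = 0.0667 to 0.133). The PANDORA-seq and traditional libraries overlapped only for Rny3 in control, where replicate 3 of PANDORA-seq was at 84.6% and the lowest traditional library at 84.4%. How many of all genes separated by their 5′ share is not given here. The share of Rny1 3′ fragments was 9.87% ± 2.58 in the PANDORA-seq controls (SD, n = 4) and 3.603% ± 1.496 in the traditional ones (SD, n = 5), and 9.88% ± 4.50 and 2.91% ± 1.94 (SD, n = 5 each) in DCHP sperm (exact permutation test, adjusted p = 0.0222 and 0.0370). In DCHP sperm this call was lost with at least 2 reads per sequence (exact permutation test, adjusted p = 0.0556) and without any 1 of 6 libraries, replicates 2 and 5 of PANDORA-seq and 1, 3, 4 and 5 of traditional RNA-seq (adjusted p = 0.0556 to 0.0926). For the share of Rny3 3′ fragments, 2.88% ± 1.32 (SD, n = 4) and 3.08% ± 2.21 (SD, n = 5) in control and 10.1% ± 10.01 and 2.75% ± 1.74 (SD, n = 5 each) in DCHP sperm, neither test passed (exact permutation test, adjusted p = 0.947 and 0.274). When same-numbered libraries were paired across the methods, each pair moved the same way for every share called here, but the smallest p that 4 or 5 pairs allow is 0.125 or 0.0625 (two-sided exact sign-flip test), so that this test could not pass (adjusted p = 0.25).

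**Figure D2:**
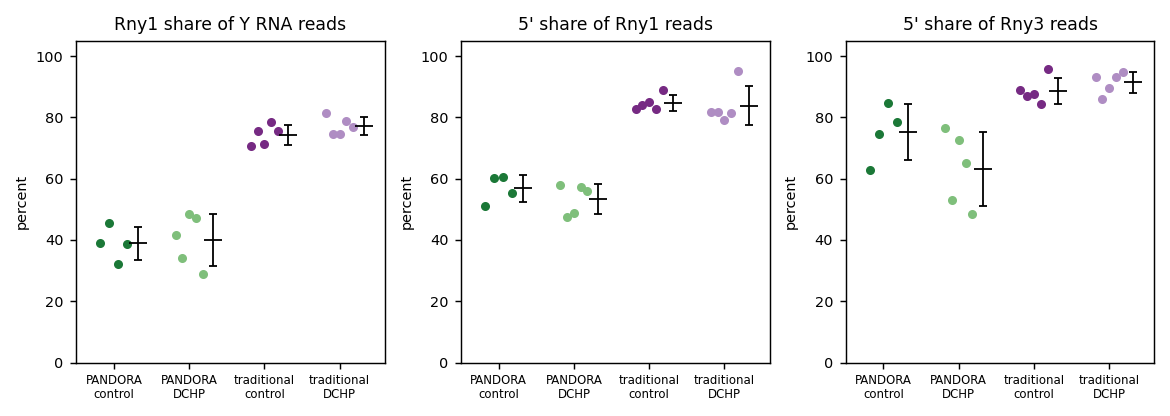
Percent of Y RNA reads on Rny1 (left) and percent of Rny1 (middle) and Rny3 reads (right) that are 5′ fragments, with 1 point per library, group mean and SD, and axes from 0. PANDORA-seq libraries lie below traditional ones in the left and middle panels, with 48.5% against 70.5% as the nearest values in the left panel.

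The coverage of each base shows where along the RNA the methods differed. On Rny1, traditional RNA-seq reached its highest mean coverage near the 5′ end, at 66.6 RPM in control and 108 RPM in DCHP sperm, against 16.1 and 14.2 RPM in PANDORA-seq. On Rny3, the highest mean coverage was also within the 5′ fragments, at 34.1 RPM in PANDORA-seq and 24.6 RPM in traditional controls. In DCHP sperm the order was the other way, at 26.5 and 34.1 RPM. Coverage fell to a low point at base 40 of Rny1 in each group, and at base 39 to 44 of Rny3.

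**Figure D3:**
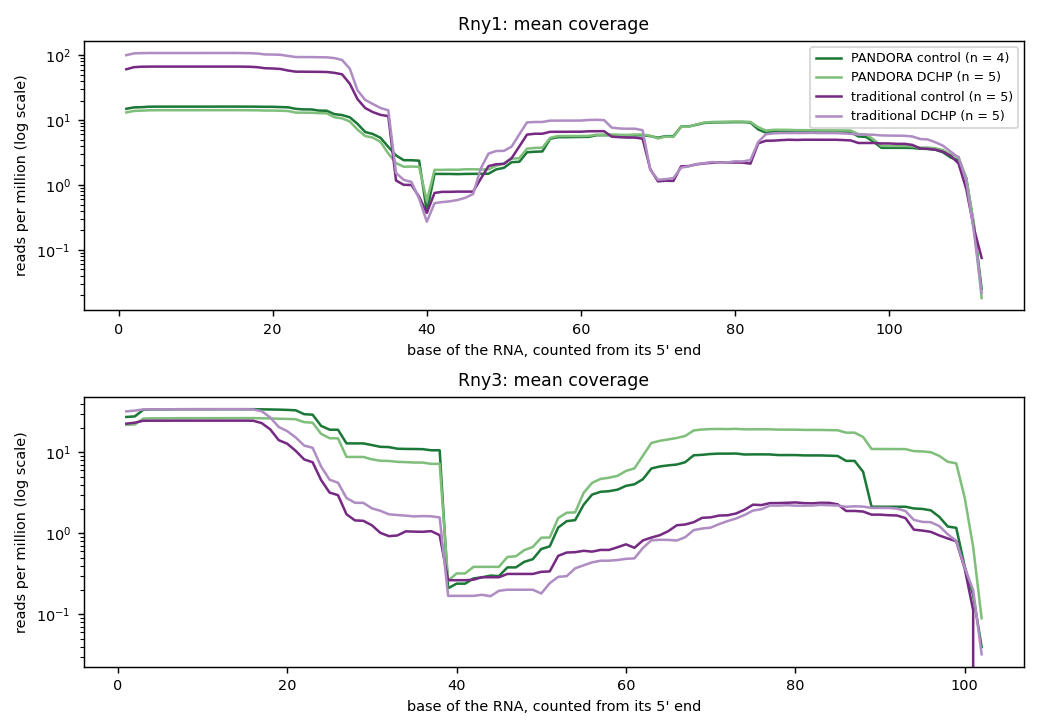
Mean coverage of each base of Rny1 (top) and Rny3 (bottom) in RPM, on a log axis, against the base counted from the 5′ end, as 1 line per group; a mean of 0 is not drawn. Over the 5′ part of Rny1, the traditional lines lie above the PANDORA-seq lines, with peaks of 66.6 and 108 against 16.1 and 14.2 RPM, and over bases 60 to 98 of Rny3 they lie below them.

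The last base of the 5′ fragments differed between the methods, most of all on Rny3. The windows of bases given for ends and starts were chosen after the values had been seen, and are a description with no test. The same holds for levels of single sequences, which were chosen for a high mean in a method. In traditional RNA-seq, Rny3 5′ fragments that ended at bases 15 to 20, as the 1–17 and 1–18 sequences shown above do, made up 57.2% ± 8.22 of Rny3 5′ reads in control and 54.2% ± 7.45 in DCHP sperm (SD, n = 5 each). In PANDORA-seq they made up 3.38% ± 0.599 (SD, n = 4) and 3.95% ± 1.98 (SD, n = 5). The sequence 1–18 was at 4.45 ± 1.71 RPM in traditional controls (SD, n = 5) and at 0.130 ± 0.0498 RPM in PANDORA-seq controls (SD, n = 4), near the limit that a count of 0 allows.

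In PANDORA-seq, base 38 was the most frequent end of Rny3 5′ fragments. It held 30.9% ± 4.74 of Rny3 5′ reads in control (SD, n = 4) and 29.5% ± 6.82 in DCHP sperm (SD, n = 5). In traditional RNA-seq it held 2.86% ± 0.804 and 4.74% ± 1.90 (SD, n = 5 each). The whole sequence 1–38, which runs to the loop, was at 7.39, 9.72, 12.3 and 6.58 RPM in PANDORA-seq controls and at 0.705, 0.461, 0.967, 0.529 and 0.372 RPM in traditional controls. The control libraries of the methods did not overlap, but this sequence was chosen for its high level in PANDORA-seq. How many other sequences separated in this way is not given here. The sequence 1–23 was abundant in both methods, at 6.31 ± 3.23 RPM (SD, n = 4) and 2.58 ± 1.04 RPM (SD, n = 5) in control.

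On Rny1, both methods had base 30 as the most frequent end of 5′ fragments, with 14.9% ± 3.82 (SD, n = 4) and 23.6% ± 5.58 (SD, n = 5) of Rny1 5′ reads in PANDORA-seq and traditional controls. Base 29 held 5.80% ± 1.85 in PANDORA-seq and 21.7% ± 5.78 in traditional controls. An end at base 39, again in the loop, held 11.2% ± 3.03 of reads by PANDORA-seq (SD, n = 4) and 0.497% ± 0.357 in traditional controls (SD, n = 5), and 10.6% ± 4.25 and 0.421% ± 0.243 in DCHP sperm (SD, n = 5 each). The sequence 1–30 was at 2.05 ± 0.222 RPM in PANDORA-seq controls (SD, n = 4) and 12.9 ± 2.84 RPM in traditional controls (SD, n = 5).

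**Figure D4:**
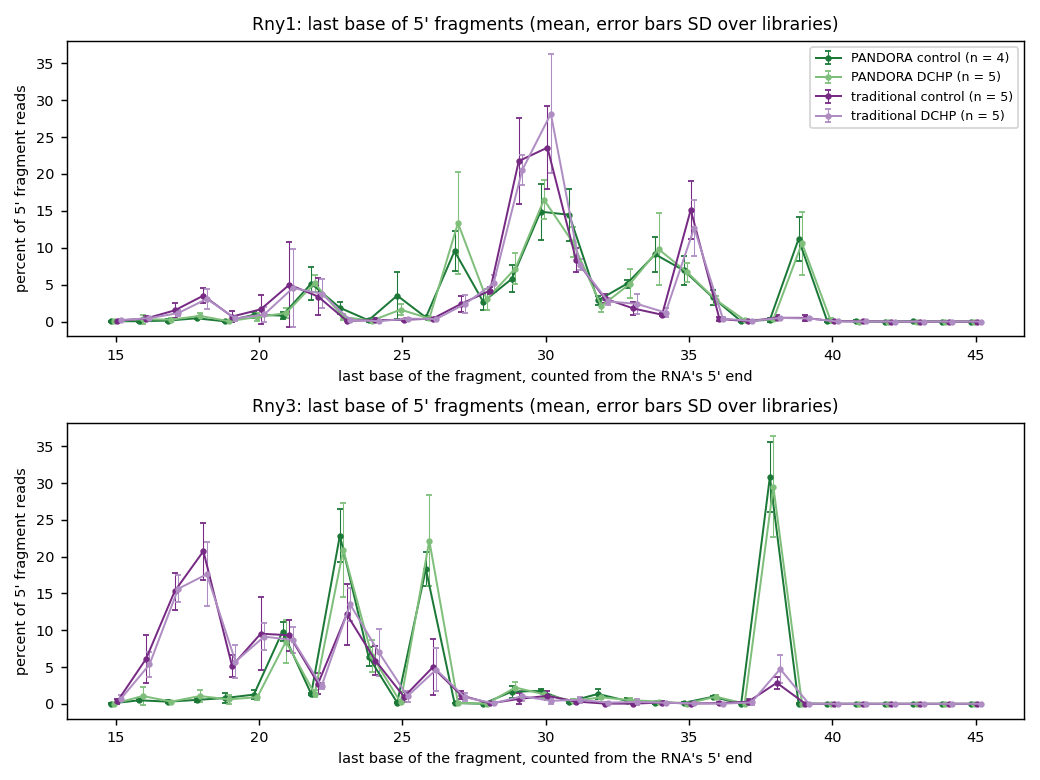
Percent of 5′ fragment reads of Rny1 (top) and Rny3 (bottom) against the last base of the fragment, counted from the 5′ end of the RNA; lines are group means and error bars the SD over libraries. On Rny3, traditional RNA-seq peaks at bases 17 and 18 and PANDORA-seq at bases 23, 26 and 38, where it holds 30.9% of control reads.

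The model of the RNA fold was set beside these ends. An end qualified where its last base, or the base that follows it in the RNA, was predicted to be unpaired. In PANDORA-seq, 92.9% ± 1.09 of Rny3 5′ reads in control (SD, n = 4) and 91.7% ± 3.08 in DCHP sperm (SD, n = 5) had such an end. In traditional RNA-seq this was 47.6% ± 5.13 and 50.8% ± 6.12 (SD, n = 5 each). Of bases 15 to 45 of Rny3, 58.1% qualify. On Rny1, where 32.3% of these bases qualify, the PANDORA-seq shares were 31.6% ± 5.09 (SD, n = 4) and 34.6% ± 9.44 (SD, n = 5), and the traditional shares 16.3% ± 9.04 and 17.1% ± 6.87 (SD, n = 5 each). An end just after an unpaired base does not qualify. Base 29 of Rny1 is such an end, and held 5.80% of its 5′ reads in PANDORA-seq and 21.7% in traditional controls. The difference on Rny1 thus depends on this rule.

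The first base of a 5′ fragment can lie only at base 1 to 3, by the rule of its class. Of Rny1 5′ fragments, 94.3% ± 2.97 started at base 1 in PANDORA-seq controls (SD, n = 4) and 91.1% ± 1.69 in traditional controls (SD, n = 5). For Rny3, 82.1% ± 3.70 and 91.9% ± 5.24 started at base 1, while 16.6% ± 3.44 of PANDORA-seq (SD, n = 4) and 5.47% ± 4.06 of traditional reads (SD, n = 5) started at base 3. Reads with 1 base before the annotated start were rare. In all libraries there were 72 for Rny1, 65 with T, and 124 for Rny3, 120 with C.

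On Rny3, most internal fragments ended in the second part of the RNA. Its 3′ fragments lie there by the rule of their class and the limit on read length. Many internal Rny1 reads of traditional controls ended nearer the middle, with 43.4% ± 15.2 at base 68 or 69 and 17.7% ± 5.63 at bases 51 to 67 (SD, n = 5). In PANDORA-seq controls these ends held 6.11% ± 1.996 and 1.57% ± 0.550 (SD, n = 4). Frequent internal and 3′ fragments are shown for their ends, and the capital marks the last base.

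Rny1 56–82, internal, PANDORA-seq: ttgaactcctgttctacactttccccC
Rny1 53–68, internal, traditional RNA-seq: agattgaactcctgtT
Rny3 63–88, internal, PANDORA-seq: ttccttctccgctcccactgcttcaC
Rny3 68–88, internal, PANDORA-seq: tctccgctcccactgcttcaC
Rny1 73–109, 3′, PANDORA-seq: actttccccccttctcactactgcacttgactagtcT
Rny1 83–109, 3′, traditional RNA-seq: cttctcactactgcacttgactagtcT
Rny3 62–99, 3′, PANDORA-seq: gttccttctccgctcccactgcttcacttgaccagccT

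On Rny3, internal fragments that ended at base 87 or 88, at the start of the last paired strand in the model, held 59.4% ± 4.23 of the internal reads in PANDORA-seq controls (SD, n = 4) and 9.19% ± 6.27 in traditional controls (SD, n = 5). In DCHP sperm the shares were 50.0% ± 9.27 and 4.76% ± 4.74 (SD, n = 5 each). The traditional controls held only 13 to 190 internal Rny3 reads per library. The sequence 63–88 was at 0.681 RPM on average in PANDORA-seq and 0.00827 RPM in traditional controls, the latter under the limit that a count of 0 allows. On Rny1, ends at base 82 or 83 held 40.05% ± 3.36 of internal reads in PANDORA-seq controls (SD, n = 4) and 6.55% ± 10.05 in traditional controls (SD, n = 5). The traditional control libraries ranged from 0% to 23.9%. The most frequent internal Rny1 read of traditional RNA-seq was 53–68, a 16-nt read that Gm22508 matches equally well, so its origin is uncertain.

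Rny1 3′ fragments also began at different bases. Starts at bases 73 to 76 held 53.2% ± 10.3 of the Rny1 3′ reads in PANDORA-seq controls (SD, n = 4) and 16.9% ± 12.1 in traditional controls (SD, n = 5). Starts at bases 83 to 85 held 33.2% ± 13.005 (SD, n = 4) and 72.9% ± 9.76 (SD, n = 5). The most frequent ends were the same in both methods: base 109 for Rny1 3′ reads, with 42.8% ± 7.84 and 47.9% ± 10.1 of them, and base 99 for Rny3, with 63.97% ± 3.39 and 54.0% ± 18.6, in the controls of PANDORA-seq (SD, n = 4) and of traditional RNA-seq (SD, n = 5). Both lie before the last annotated bases, within the final run of T. The neighbouring ends of Rny1 were not alike in control. Base 110 held 39.1% ± 7.295 of its 3′ reads in PANDORA-seq controls (SD, n = 4) and 20.45% ± 9.43 in the traditional ones (SD, n = 5), and base 108 held 9.38% ± 3.63 and 24.5% ± 10.48. In DCHP sperm base 110 was closer between the methods, at 40.65% ± 12.43 and 30.65% ± 11.23 (SD, n = 5 each). Base 108 held 6.98% ± 2.33 and 17.99% ± 6.41 there.

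Read length followed the ends. Rny3 reads had a mean length of 28.1 ± 0.700 nt in PANDORA-seq controls (SD, n = 4) and 21.1 ± 0.622 nt in traditional controls (SD, n = 5), and of 28.9 ± 0.930 and 21.4 ± 0.791 nt in DCHP sperm (SD, n = 5 each). The difference was 6.95 nt in control and 7.51 nt in DCHP sperm. Rny1 reads had a mean of 30.9 ± 0.361 nt (SD, n = 4) and 27.9 ± 1.35 nt (SD, n = 5) in control, and of 31.2 ± 0.680 and 27.7 ± 1.20 nt in DCHP sperm (SD, n = 5 each), a difference of 2.96 and 3.50 nt. All 4 differences passed the two-sided exact permutation test (p = 0.00794, adjusted p = 0.0222), and no PANDORA-seq library overlapped a traditional one. Lengths of other small RNA genes and of all reads are not given here. Whether the difference is particular to Y RNA reads was not tested. Reads under 18 nt made up 1.16% ± 0.199 of Y RNA reads in PANDORA-seq controls (SD, n = 4) and 11.9% ± 3.81 in traditional controls (SD, n = 5). Exact matches made up 93.1% ± 0.538 and 89.6% ± 1.18.

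**Figure D5:**
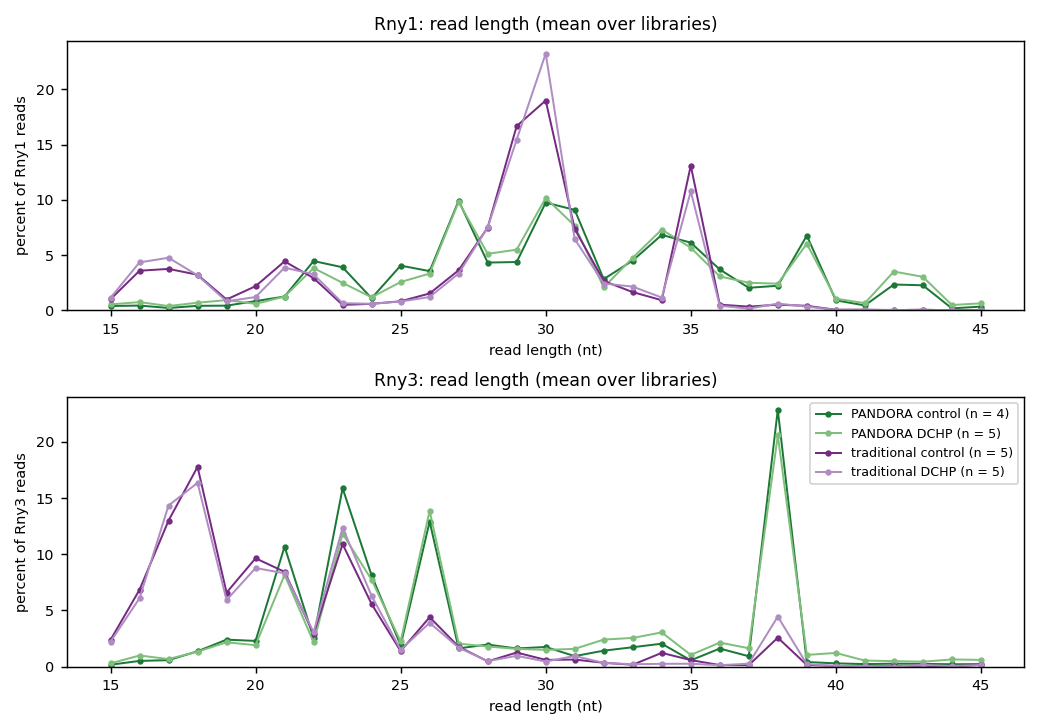
Percent of Rny1 (top) and Rny3 reads (bottom) at each read length in nt, as group means, with all fragment classes together. On Rny3, traditional RNA-seq peaks at 17 and 18 nt and PANDORA-seq at 23, 26 and 38 nt, and the group means of length are 21.1 and 28.1 nt in control.

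DCHP exposure was compared within each method. In PANDORA-seq, Rny1 was at 27.7 ± 4.45 RPM in control (SD, n = 4) and 25.8 ± 11.7 RPM in DCHP sperm (SD, n = 5), and Rny3 at 44.2 ± 10.9 and 46.4 ± 39.1 RPM. The log2 fold changes were -0.10 (SE 0.34) for Rny1 and 0.07 (SE 0.48) for Rny3, and edgeR called neither (adjusted p = 0.997 for both). In traditional RNA-seq, Rny1 was at 78.3 ± 15.6 RPM in control and 124 ± 61.4 RPM in DCHP sperm (SD, n = 5 each), and Rny3 at 27.7 ± 9.09 and 36.8 ± 19.2 RPM. The log2 fold changes were 0.67 (SE 0.35, edgeR adjusted p = 0.659) and 0.41 (SE 0.39, adjusted p = 0.774), and neither was called. The groups overlapped for both genes, with Rny1 at 62.3 to 102 RPM in control and 88.8 to 233 RPM in DCHP sperm. The two-sided exact permutation test over libraries gave an unadjusted p = 0.0476 for Rny1 (adjusted p = 0.727 over all genes) and 0.437 for Rny3. Without replicate 5 of DCHP in traditional RNA-seq, the log2 fold changes in that method were 0.31 for Rny1 and 0.043 for Rny3. Without replicate 5 of DCHP in PANDORA-seq, the log2 fold changes there were -0.403 for Rny1 and -0.573 for Rny3. Of all small RNA genes, edgeR called 0.0% of 608 in PANDORA-seq and 0.0% of 1114 in traditional RNA-seq. An unadjusted p under 0.05 was reached by 23 and 93 genes, and DESeq2 called 0 in both.

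None of the 6 Y RNA fragment classes was called for exposure by edgeR, which called 0.0% of 855 fragment classes of all genes in PANDORA-seq and 0.0% of 1426 in traditional RNA-seq. An unadjusted p under 0.05 was reached by 33 and 126 classes, and DESeq2 called 0 and 1. The Rny3 3′ fragments of PANDORA-seq had the largest fold change of the 6 classes, 2.67 on the log2 scale (SE 1.03, edgeR adjusted p = 0.807). Replicates 5 and 2 of DCHP, at 28.4 and 7.43 RPM, lay above the controls, and replicates 1 and 3, at 0.507 and 0.327 RPM, below them; without replicate 5 the fold change was 1.04. Without the filter on low counts, edgeR gave this class an adjusted p of 2.01e-06 at the same log2 fold change, 2.67. The two-sided exact permutation test over libraries gave it an unadjusted p = 0.397. None of the 14 comparisons of shares and lengths between control and DCHP sperm passed the exact permutation test. The largest of these differences in 5′ share was -11.9 percentage points, for Rny3 in PANDORA-seq (p = 0.159, adjusted p = 0.317, exact permutation test). The effect of DCHP was not shown to differ between the methods: the interaction was -0.76 (SE 0.51, edgeR adjusted p = 0.922) for Rny1 and -0.34 (SE 0.65, adjusted p = 0.993) for Rny3 on the log2 scale, and edgeR called 0.0% of 1161 genes.

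Other small RNAs made by RNA polymerase III were compared over the same libraries, all 8 annotated and 7 of them tested. In control sperm, edgeR called 4 of these 7 per total read, 2 higher and 2 lower in PANDORA-seq, beside the 68.5% called of all small RNA genes. Rn7s1, a 7SL RNA of the signal recognition particle, was at 7210 ± 2304 RPM in PANDORA-seq and 1059 ± 288 RPM in traditional RNA-seq (log2 fold change 2.77, edgeR adjusted p = 1.97e-05), and Rpph1, the RNA of RNase P, at 24.1 ± 8.97 and 3.88 ± 1.16 RPM (2.63, adjusted p = 3.48e-05). The U6 RNA Rnu6 (-3.63, edgeR adjusted p = 3.82e-06) and the brain cytoplasmic RNA Bc1 (-5.92, adjusted p = 7.18e-06) were lower. Rn7sk (0.96), Rmrp (-0.30) and the vault RNA Vaultrc5 (-0.73) were not called. In DCHP sperm all 7 were called per total read, beside 74.4% of all genes, with Rn7sk, Rpph1 and Rn7s1 higher and the other 4 lower. The direction under other scalings, on which that of Rny1 depends, is not given here for this list. No gene of the list was called for exposure in either method. Rn7s2 had no reads. Reads that Rn7s1 and Rn7s2 match equally well were counted for Rn7s1, and how many there were is not given here. The counts of both and of Rnu6, which has many near copies, are uncertain for that reason. In traditional controls, 5′ fragments made up 84.7% of Rny1 and 88.7% of Rny3 reads, against 0.436% of Rn7s1, 3.72% of Rn7sk and 51.9% of Rmrp reads.

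Across the 9 libraries of PANDORA-seq, the small RNA genes whose log2 levels were most like Rny1 were Rny3 (Pearson r = 0.92), Mir3068 (0.89) and Snord83b (0.88), of 396 genes. Those most like Rny3 were Snord83b (0.96), Snord65 (0.94) and Snord14a (0.94). Across the 10 libraries of traditional RNA-seq, Mir8111 (0.97), Snord49a (0.96) and Mir429 (0.95) were most like Rny1 and Snord49a (0.91), Gm22980 (0.91) and Snord66 (0.91) most like Rny3, of 639 genes. The correlation of Rny1 and Rny3 was 0.88 there. These are descriptions over libraries that differ in depth and exposure, and all values share the library total as denominator.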

How the data were processed

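The 19 tables deposited by the authors give each distinct read sequence of 15–45 nt with its raw read count, not normalised and with no molecular identifiers. The study's methods state NEBNext small RNA libraries, single-end sequencing and SPORTS1.1 with 1 mismatch, and mm10 is the build in the submitters' processing notes. Reads were matched on the sense strand to 6109 small RNA genes of GENCODE M21 (GRCm38). At most 1 mismatch was allowed, the best match was kept, and ties stayed with Rny1 or Rny3. Nuclear tRNAs, 28S and 45S rRNA were not in this reference. Sequences come from GENCODE.

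Levels were tested over all genes or fragment classes with edgeR 4.0.16 (R 4.3.3, quasi-likelihood, total deposited reads as library size, at least 10 reads in at least 4 libraries). A call needed a Benjamini-Hochberg adjusted p under 0.1 and a fold over 2, or, for the interaction, the adjusted p alone. Shares and lengths were compared with two-sided exact permutation tests in Python 3.11.15, adjusted over 28 comparisons, at 0.05. On simulated data with 200 genes changed 4-fold, edgeR recovered 84.5% for the method comparison in control and 87.5% in DCHP sperm (893 and 958 genes), and 90.5% and 74.5% for exposure in PANDORA-seq and traditional RNA-seq (608 and 1114 genes). Every simulated gene of a comparison had the same spread, and no library lay apart. The recovery of smaller changes, as those of Rny1 and Rny3 with exposure were, was not simulated. Structures were predicted with RNAfold 2.7.2. Total counts of 21588335 to 56506344 reads per library set the precision.

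Same-numbered libraries were checked for pairing from the correlation of their deviations from the group means. For the methods in control sperm r was 0.222 to 0.487 in 4 of 4 pairs, all over 0.1, and the numbers were taken to pair these libraries. The main tests of levels, shares and lengths nevertheless used no pairing. It entered only as the replicate block, 1 of the alternatives. In DCHP sperm r was 0.089 to 0.365, with 4 of 5 pairs over 0.1, and the exposure groups had 1 such pair each. Libraries of different numbers were not correlated, so these values have no baseline from unpaired libraries.

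Alternatives covered matching, class limits, scaling, DESeq2 1.42.0, permutation, filtering, the replicate block and leaving out each library. Best match in the whole genome and flanking bases were not run. Best match among all GENCODE transcripts was added after seeing the data. It dropped 42 reads. The named genes are Rny1 and Rny3, the 3 highest sequences per gene and method, a list of RNA polymerase III transcripts and the 3 genes most alike in log2(RPM + 0.1). Members and lists were chosen with earlier results of these data known.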

Additional observations from a re-analysis of the deposited data

Results flagged for a closer look

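Of 60 sets of values, each a measure in a group of 4 or 5 libraries, 9 held a library that lay apart from the rest by Dixon's criterion, which chance meets in about 1 of 20. Replicate 5 of DCHP in traditional RNA-seq accounts for 5 of them. It had 233.1 RPM of Rny1, where the other 4 libraries had 88.8 to 110.5 RPM, and 70.07 RPM of Rny3, where the others had 20.2 to 32.6 RPM. Its Rny1 5′ fragments were at 221.7 RPM against 72.5 to 89.9 RPM, and its Rny3 5′ fragments at 66.49 RPM against 18.8 to 29.3 RPM. The 5′ share of its Rny1 reads was 95.11%, against 79.1% to 81.9% in the others.

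In replicate 5 of DCHP in PANDORA-seq, Rny3 3′ fragments were at 28.41 RPM against 0.327 to 7.43 RPM in the other libraries. Rny3 5′ fragments of replicate 3 of the PANDORA-seq controls were at 50.35 RPM against 26.9 to 29.1 RPM. Rny1 3′ fragments of replicate 2 of the traditional controls were at 4.99 RPM against 1.70 to 2.65 RPM. In replicate 2 of DCHP in traditional RNA-seq, 3′ fragments made up 5.831% of Rny3 reads, against 1.66% to 2.28% in the others.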

How the results depend on the processing

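The scaling moved the method comparisons most. With hairpin reads as library size, the log2 fold change turned direction for Rny1 (0.93 in control, 0.41 in DCHP sperm), Rny1 3′ fragments (2.46 and 2.42), Rny1 5′ fragments in control (0.37), Rny1 internal fragments in DCHP sperm (1.89) and Rny3 5′ fragments in DCHP sperm (2.32), and Rny3 was called (3.09 and 3.02). With TMM, Rny1 was no longer called (-0.69 and -0.998) and Rny3 was (1.48 and 1.58), and with DESeq2 Rny1 was not called in control (-0.67) and Rny3 was (1.496 and 1.53). With reads of at least 18 nt Rny3 was called in control (1.02). Without reads that another gene matches equally well, Rny1 internal fragments in DCHP sperm turned to 1.22. The cause was not tested. With no filter on low counts, more genes were tested and edgeR called 1105 genes for the method in control, 2004 in DCHP sperm, 12 for exposure in PANDORA-seq, 37 in traditional RNA-seq and 2 for the interaction. With exact matches only, and with the replicate block, 1 gene and 1 fragment class were called for exposure in PANDORA-seq. With no filter, the exposure gave 14 called fragment classes with PANDORA-seq libraries and 52 with traditional ones, where DESeq2 called 1. Leaving out 1 library gave 0 to 1 genes for the interaction, with 1 without replicate 2 of DCHP or replicate 3 of the controls in traditional RNA-seq.

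Differences in shares and lengths that lost their call kept their direction. With the replicate block, and without a traditional control for the measures in control other than the Rny3 5′ share, they lost it at the smallest p the design allows. The Rny3 5′ share in control (p = 0.0571 without replicate 1, 2, 3 or 5 of traditional RNA-seq, where 0.0286 can be reached, exact permutation test) and the Rny1 3′ share in DCHP sperm (p = 0.0238 to 0.0397) also lost it above that. With the replicate block, paired differences in control and DCHP sperm were -26.8 and -30.4 points for the Rny1 5′ share, 6.12 and 6.96 for the Rny1 3′ share, -11.8 and -28.3 for the Rny3 5′ share, -35.2 and -37.2 for the Rny1 share of Y RNA reads, 3.17 and 3.50 nt for Rny1 length and 6.77 and 7.51 nt for Rny3 length. The block changed no call for the level of Rny1 or Rny3. Leaving out 1 library in control gave -29.1 to -25.9 points, 5.10 to 7.15, -16.7 to -9.51, -37.6 to -33.2, 2.40 to 3.17 nt and 6.61 to 7.18 nt for these measures, and 5.42 to 8.03 for the Rny1 3′ share in DCHP sperm, which was 6.07 with at least 2 reads per sequence.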
